A study of Mus musculus with 10 samples.

Results

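Fatty acid oxidation was followed across 39 genes named for their place in the pathway, read from probe sets whose annotated symbol equals one of them. Of these genes 37 were tested, on 65 probe sets that carry a single gene symbol, out of 18193 genes and 45101 probe sets in all, and Ucp2 and Acsl1 are not analysed here. The members were set in 4 groups: 18 mitochondrial genes (17 tested), 14 peroxisomal genes, the ketone body enzyme Bdh1, and 6 genes around the pathway (5 tested). RNA came from whole liver of 10 male B6C3F1/Crl mice, the cross of a C57BL/6 male with a C3H/He female, received at 29 to 32 days of age and given 5 days to settle. The animals were split at random into 5 controls and 5 that drank 0.05% (w/v) phenobarbital for 28 days, and no transgene or deletion is given for either group. RNA of each liver was read on a separate Affymetrix array, and levels are given on the log2 scale on which they were deposited, where a difference of 1 is a change of 2-fold. Precision is limited by having 5 arrays in a group.

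Liver burns fatty acids in 2 organelles. In mitochondria, carnitine carries long-chain acyl groups across the inner membrane, and a repeated cycle of dehydrogenation, hydration, oxidation and thiolysis cuts them to acetyl-CoA, much of which becomes ketone bodies in fasting. Peroxisomes shorten very long and branched chains and pass the products on as carnitine esters, and PPARalpha, a nuclear receptor activated by fatty acids, switches on genes of both routes. Phenobarbital acts mainly through another nuclear receptor, the constitutive androstane receptor, whose classical target Cyp2b10 rose here from 6.47 ± 0.66 to 13.52 ± 0.04 (SD, n = 5 each; limma adjusted p = 1.78e-09).

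Fatty acid oxidation genes were lower in treated livers or gave no call, and no member was called higher. By limma with Benjamini-Hochberg adjustment over all genes (adjusted p under 0.05), 15 of 37 members fell, which is 40.5%, where 11.3% of all genes tested fell. By the same test 0 of the 37 rose, where 9.02% of all genes did, and 0 were higher at an unadjusted p under 0.05. In 12 of 37 members every treated animal lay below every control, a pattern found in 7.21% of all genes, and in 0 every treated animal lay above, against 5.73% of all genes. With each array centred on its median 12 members fell and 0 rose, while over all genes 1569 fell and 2345 rose, against 2051 and 1641 without centring. The median log2 difference of the members was -0.18, or 88.1% of the control level, and that of all genes was 0.008. The falls were small: the 15 members stood at 39.3% to 86.8% of control, and 1 of them, Acot1, fell at least 2-fold. In whole liver, fewer cells of a type and less RNA per cell cannot be told apart.

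The arrays also differed in a technical measure, which bears on every value given here. The mean of 24 probe sets for poly-A spike-ins, which are foreign transcripts put into the RNA sample, was 7.77 to 8.64 on control replicates 1, 2, 3 and 5, and 5.76 to 6.58 on control replicate 4 and all treated arrays. With this set as a block, treatment is read against control replicate 4 alone, and 0 of 37 members passed limma, where 0.302% of all genes passed as lower. The members' median was then -0.10 and that of all genes -0.04. In that fit 28 of 37 members lay below 0, which is 75.7%, against 57.8% of all genes, and 4 were lower at an unadjusted p under 0.05 (Cpt1a, Acadvl, Etfdh and Crot), where 7.92% of all genes were. Without the block, the mean of the treated animals was below control replicate 4 in 14 of the 15 members that fell, and all 5 treated animals were below it in 12. These 15 were picked for lying below a control group that includes control replicate 4, so these counts are no check of the falls. Most members are bright genes, and among the genes brighter than the median gene 14 of 36 members fell, which is 38.9%, against 19.8% of those genes. The split was not confined to the poly-A probe sets. A further 18 probe sets, for hybridisation spike-ins, averaged 10.54 to 10.74 in treated livers and control 4. In every other control their mean was higher, from 10.95 to 11.30. A sign of RNA integrity or labelling, the 3' minus 5' log2 level of Actb, was 1.28 to 1.78 in controls and 1.19 to 1.33 in treated livers. That of Gapdh was -0.15 to -0.03 in controls and -0.28 to -0.21 in treated livers, with no overlap and with control 4 at -0.15. The part of the spike-in set and of these measures in the differences was not tested.

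**Figure D1:**
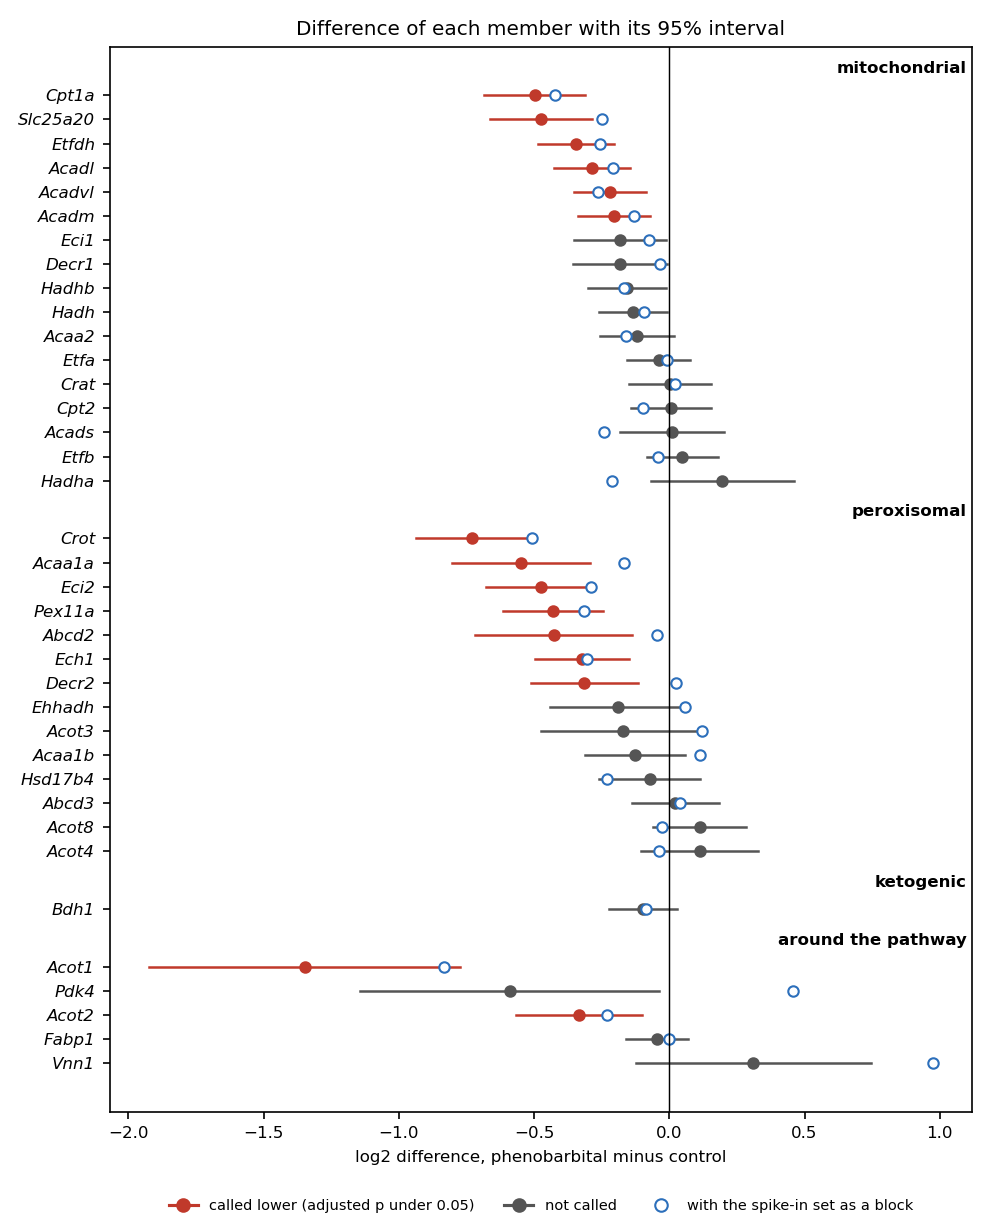
Difference between 5 phenobarbital and 5 control livers for each of 37 members, in log2 units on the x axis, grouped by place in the pathway. Filled points with bars are the limma difference and its 95% interval, red where the gene was called lower, and open circles are the difference with the spike-in set as a block. Of the red genes, Acot1 at -1.35 and Crot at -0.73 lie farthest from 0, and the open circle of Decr2 lies at 0.02.

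The promoters of 8 members are shown because PPARalpha is known to bind a direct repeat of AGGTCA spaced by 1 base, written AGGTCANAGGTCA on 1 strand and TGACCTNTGACCT on the other. The 250 bases before the gene start were searched in the RefSeq promoter table (GRCm38.p6) on both strands, letting 2 of the 12 fixed letters differ. Of 33 members with an entry, 3 held the repeat (Fabp1, Etfa and Acot4), against 3.24% of all 32851 promoters in the table, and 0 of the 14 entries of members that fell held it. The 6-base unit AGGTCA alone, also counted inside the repeat, stood in 5 of 33 members and 3 of the 14, against 14% of all promoters. A missing match says only that these letters are not in this window. The last 120 bases before the start are printed 5′ to 3′ on the gene's strand, with the repeat or the 6-base unit in capitals. Fabp1 (chr6:71199759-71199878, plus strand), Etfa (chr9:55512244-55512363, minus strand) and Acot4 (chr12:84038259-84038378, plus strand) hold the repeat, and none of the 3 was called. Acot2 (chr12:83987741-83987860), Acot1 (chr12:84009382-84009501) and Acot3 (chr12:84052024-84052143) share the plus strand and the neighbourhood of Acot4. Crot (chr5:8997147-8997266, minus strand) and Cpt1a (chr19:3323181-3323300, plus strand) were among the genes that fell most clearly.
Fabp1: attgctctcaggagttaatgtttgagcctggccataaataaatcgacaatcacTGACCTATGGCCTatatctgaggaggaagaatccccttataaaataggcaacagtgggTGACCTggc
Etfa: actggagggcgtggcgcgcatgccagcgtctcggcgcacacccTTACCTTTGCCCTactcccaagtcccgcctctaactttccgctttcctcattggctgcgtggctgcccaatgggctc
Acot4: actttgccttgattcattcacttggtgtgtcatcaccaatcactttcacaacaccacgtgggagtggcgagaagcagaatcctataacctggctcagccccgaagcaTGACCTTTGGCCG
Acot2: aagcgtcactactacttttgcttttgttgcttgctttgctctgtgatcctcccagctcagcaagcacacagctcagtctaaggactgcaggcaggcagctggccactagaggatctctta
Acot1: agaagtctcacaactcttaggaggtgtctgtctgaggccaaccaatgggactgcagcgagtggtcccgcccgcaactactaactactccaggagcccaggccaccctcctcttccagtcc
Acot3: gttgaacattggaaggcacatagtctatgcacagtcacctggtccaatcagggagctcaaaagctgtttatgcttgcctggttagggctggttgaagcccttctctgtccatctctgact
Crot: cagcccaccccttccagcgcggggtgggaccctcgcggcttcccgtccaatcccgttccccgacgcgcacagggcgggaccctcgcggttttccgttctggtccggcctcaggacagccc
Cpt1a: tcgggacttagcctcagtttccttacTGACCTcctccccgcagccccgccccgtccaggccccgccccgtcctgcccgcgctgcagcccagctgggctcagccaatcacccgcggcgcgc

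Of the genes for entry into mitochondria, that of the controlled step and that of the inner membrane carrier fell. Cpt1a, which makes long-chain acylcarnitine and sets the rate of mitochondrial oxidation, read 10.88, 11.25, 11.19, 10.97 and 10.93 in controls 1 to 5 and 10.39, 10.58, 10.61, 10.67 and 10.48 in treated animals 1 to 5. The groups did not overlap, and controls 2 and 3 were the highest. Its log2 difference was -0.50 ± 0.09 (SE, limma adjusted p = 0.00271), or 70.8% of control. Slc25a20, the translocase that swaps acylcarnitine for carnitine, read 11.19, 11.34, 11.12, 10.94 and 11.23 in controls and 10.82, 10.74, 10.81, 10.55 and 10.53 in treated animals. These groups were also apart, with a log2 difference of -0.47 ± 0.09 (SE, limma adjusted p = 0.00375). Cpt2, which turns acylcarnitine back into acyl-CoA inside the membrane, stood at 11.02 ± 0.09 and 11.02 ± 0.10 (SD, n = 5), with a 95% interval of the difference from -0.14 to 0.16. Crat, which exchanges short-chain acyl groups, stood at 8.56 ± 0.05 and 8.56 ± 0.13, with an interval from -0.15 to 0.16. The probe set used for Crat is of a type open to cross-hybridisation. Its other probe sets, tested singly, differed by -0.10 and -0.20 (limma adjusted p = 0.544 and 0.184).

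Among the acyl-CoA dehydrogenases, which open each turn of the cycle, the enzymes for long and medium chains fell and the short-chain enzyme gave no call. Acadl, the long-chain enzyme, read 11.96, 12.16, 12.10, 11.97 and 12.05 in controls and 11.69, 11.78, 11.84, 11.82 and 11.68 in treated animals. Acadvl, the very-long-chain enzyme of the inner membrane, read 12.26, 12.31, 12.11, 12.27 and 12.19 against 12.00, 12.04, 12.03, 12.06 and 11.91. Acadm, the medium-chain enzyme, read 12.93, 13.05, 12.94, 12.85 and 12.85 against 12.74, 12.75, 12.78, 12.69 and 12.64. In all 3 the highest treated animal lay below the lowest control, by 0.12 in Acadl, 0.05 in Acadvl and 0.07 in Acadm. The log2 differences were -0.29, -0.22 and -0.20 in the order given (limma adjusted p = 0.00972, 0.0251 and 0.0345). Acadvl lost its call without control replicate 2 or phenobarbital replicate 5 (log2 difference -0.20 in both, adjusted p = 0.0626 and 0.0604). Acadm lost its call in 7 of 10 omissions of an animal, and kept it without control replicates 4 or 5 or phenobarbital replicate 3 (log2 difference -0.22 to -0.17 over the omissions, adjusted p 0.0246 to 0.0848). Acads stood at 10.47 ± 0.18 and 10.48 ± 0.10 (SD, n = 5), an interval of the difference from -0.18 to 0.20. Whether Acads differs from the other 3 was not tested.

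Electrons from these dehydrogenases pass through the flavoprotein of Etfa and Etfb to Etfdh, which hands them to ubiquinone. Etfdh read 12.03, 12.13, 11.96, 11.91 and 11.95 in controls and 11.64, 11.71, 11.75, 11.59 and 11.57 in treated animals. The groups were apart, and its log2 difference was -0.34 ± 0.07 (SE, limma adjusted p = 0.00418), or 78.8% of control. The flavoprotein genes moved little, with intervals of the difference from -0.16 to 0.08 for Etfa and from -0.08 to 0.18 for Etfb.

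The later steps of the mitochondrial cycle and its helper enzymes gave no call. The trifunctional protein subunits stood at 10.27 ± 0.27 and 10.47 ± 0.17 for Hadha and at 11.88 ± 0.10 and 11.72 ± 0.07 for Hadhb (control then treated, SD, n = 5; limma adjusted p = 0.275 and 0.11). Hadha passed as higher without control replicate 4 (log2 difference 0.30, limma adjusted p = 0.0489), which read 10.68 against 9.98 to 10.38 in the other controls. Hadhb is read by 3 probe sets, and the 2 not used above, tested singly, fell by 0.38 and 0.37 on the log2 scale (limma adjusted p = 0.0276 and 0.015). The short-chain dehydrogenase Hadh, the thiolase Acaa2, the isomerase Eci1 and the dienoyl-CoA reductase Decr1 had log2 differences between -0.18 and -0.12, none passing limma (adjusted p between 0.119 and 0.199). Hadh is also read on a probe set open to cross-hybridisation. Its other probe sets, at control means of 12.29 and 5.12, differed by -0.03 and -0.01 when tested singly. The 3 probe sets of Acaa2 differed by -0.12, -0.06 and 0.24, none passing limma when tested singly, and their mean by 0.02. In all, 6 of 17 mitochondrial members fell, where 11.3% of all genes did. The median over the group was -0.16, against 0.008 over all genes. With the spike-in block the group's median was also -0.16, against -0.04 over all genes.

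**Figure D2:**
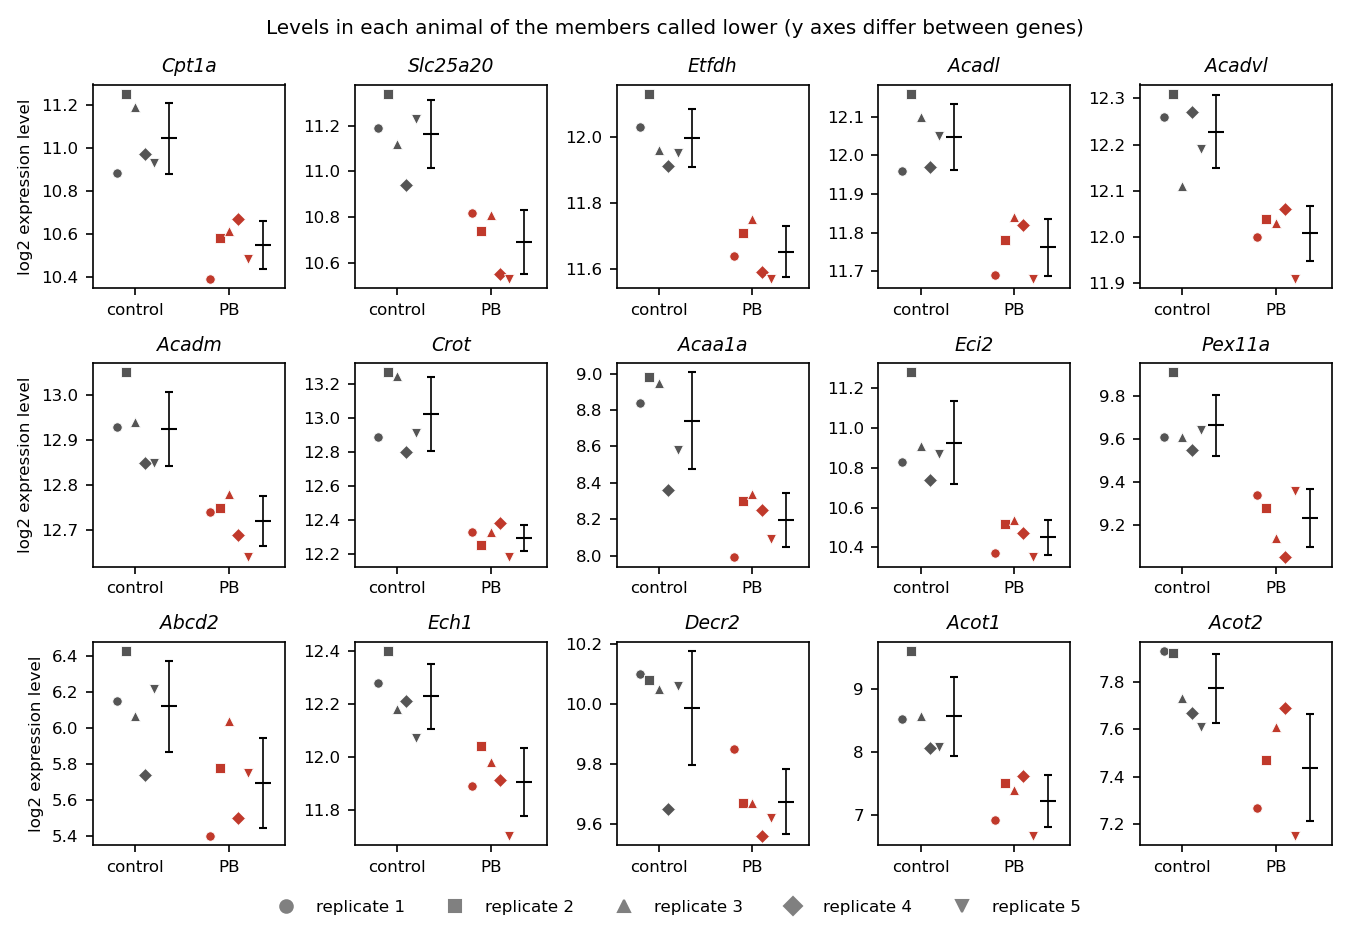
Log2 expression level (y axis, a separate scale for each gene) in 5 control animals (grey) and 5 phenobarbital animals (PB, red) for the 15 members called lower, with symbols for the replicate number. Bars at the right of each group are the mean and SD. The groups do not overlap in 12 panels, and overlap in Abcd2, Decr2 and Acot2.

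Peroxisomal genes fell in 7 of 14 tested members, where 11.3% of all genes fell. Their median was -0.25, against 0.008 over all genes. With the spike-in block their median was -0.04, against -0.04 over all genes, and 9 of 14 lay below 0, against 57.8% of all genes. Crot, which makes medium-chain acylcarnitines for export to mitochondria, read 12.89, 13.27, 13.25, 12.80 and 12.91 in controls and 12.33, 12.25, 12.33, 12.38 and 12.18 in treated animals. The lowest control lay 0.42 above the highest treated animal, and the treated values were close together (SD 0.079). Its log2 difference was -0.73 ± 0.10 (SE, limma adjusted p = 0.00054), or 60.3% of control, and -0.51 with the spike-in block (unadjusted p = 0.00603, adjusted p = 0.171).

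Of the enzymes that prepare unsaturated chains for the cycle, 3 peroxisomal ones fell. Eci2, a peroxisomal enoyl-CoA isomerase also found in mitochondria, read 10.83, 11.28, 10.91, 10.74 and 10.87 in controls and 10.37, 10.52, 10.54, 10.47 and 10.35 in treated animals. Ech1, a dienoyl-CoA isomerase of both organelles, read 12.28, 12.40, 12.18, 12.21 and 12.07 against 11.89, 12.04, 11.98, 11.91 and 11.70. Decr2, the peroxisomal dienoyl-CoA reductase, read 10.10, 10.08, 10.05, 9.65 and 10.06 against 9.85, 9.67, 9.67, 9.56 and 9.62. The groups were apart in Eci2 and Ech1 and overlapped in Decr2, where control 4 lay among the treated animals. The log2 differences were -0.48, -0.32 and -0.31 (limma adjusted p = 0.00504, 0.0151 and 0.0304). Decr2 was 0.02 with the spike-in block and lost its call in 8 of 10 omissions of an animal. It kept the call without control replicate 4 or phenobarbital replicate 1 (log2 difference -0.40 to -0.29 over the omissions, adjusted p 0.00217 to 0.0721).

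Of the genes of the peroxisomal membrane, Pex11a and Abcd2 fell and Abcd3 gave no call. Pex11a, which elongates and divides peroxisomes, read 9.61, 9.91, 9.61, 9.55 and 9.64 in controls and 9.34, 9.28, 9.14, 9.05 and 9.36 in treated animals, with no overlap. Its log2 difference was -0.43 ± 0.09 (SE, limma adjusted p = 0.00516). The second probe set of Pex11a, at a control mean of 9.50, overlapped and differed by -0.35 when tested singly (limma adjusted p = 0.0668). Abcd2, a transporter of very-long-chain acyl-CoA, was dim and overlapped, at 6.15, 6.43, 6.07, 5.74 and 6.22 against 5.40, 5.78, 6.04, 5.50 and 5.75. It fell by 0.43 on the log2 scale (limma adjusted p = 0.0402), was at -0.05 with the block, and lost its call in 8 of 10 omissions of an animal, all but those of control replicate 4 and phenobarbital replicate 3 (log2 difference -0.52 to -0.35, adjusted p 0.0101 to 0.0987). Tested singly, 3 of the 4 probe sets of Abcd2 were called lower. Its relative Abcd3, an abundant membrane transporter, stood at 13.11 ± 0.13 and 13.13 ± 0.09 (SD, n = 5), with an interval of the difference from -0.14 to 0.18. Its second probe set, at a control mean of 4.98, differed by -0.66 (limma adjusted p = 0.0582), and the mean of its probe sets by -0.32.

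The peroxisomal cycle enzymes themselves mostly gave no call. Ehhadh, the bifunctional enzyme for straight chains and a strong PPARalpha target, read 12.36, 12.64, 12.16, 12.02 and 12.15 in controls and 11.95, 12.16, 12.31, 12.12 and 11.85 in treated animals. The groups overlapped (log2 difference -0.19, 95% interval -0.44 to 0.07), and without control replicate 2 the difference was -0.09. Hsd17b4, the bifunctional enzyme for branched chains, had an interval from -0.26 to 0.12. The thiolase Acaa1b stood at 13.97 ± 0.16 and 13.84 ± 0.11 (SD, n = 5), an interval from -0.31 to 0.06. Acaa1a was called lower on the single-symbol probe set used for it (8.84, 8.98, 8.95, 8.36 and 8.58 against 7.99, 8.30, 8.34, 8.25 and 8.09; limma adjusted p = 0.00775), but its other one differed by -0.04 (adjusted p = 0.747). Both carry the suffix that Affymetrix gives to probe sets open to cross-hybridisation, and the 2 probe sets shared by Acaa1a and Acaa1b differed by 0.07 and -0.04, so the fall of Acaa1a rests on 1 of its probe sets.

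**Figure D3:**
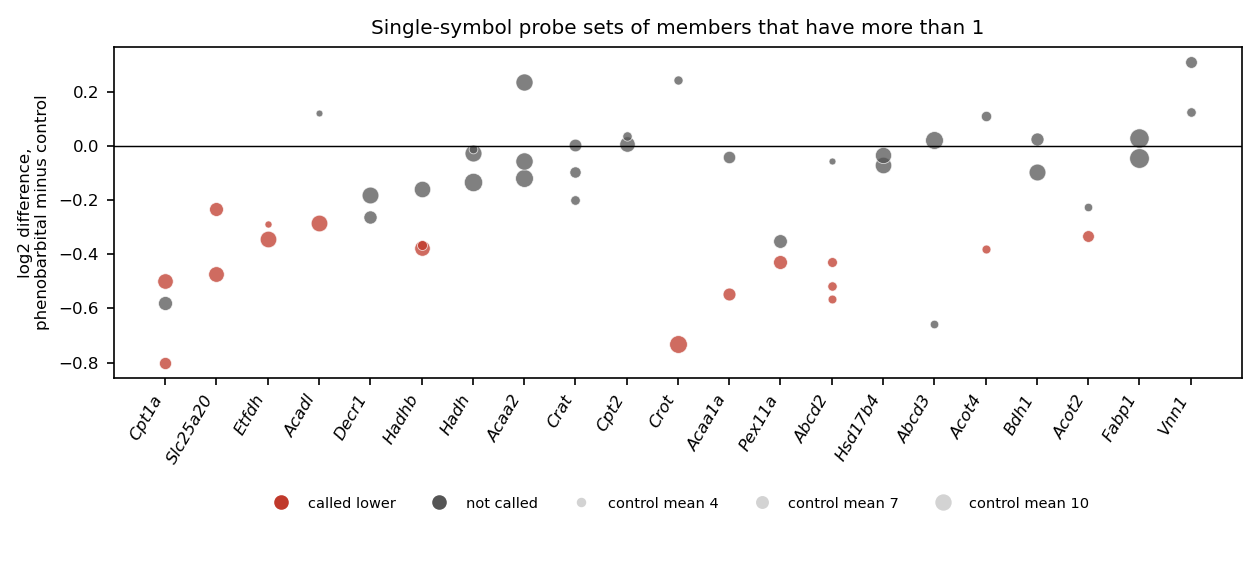
Log2 difference between phenobarbital and control (y axis) of every single-symbol probe set of the 21 members that have more than 1 (x axis), each fitted singly. Red points were called lower, and a larger point has a higher control mean. The 3 probe sets of Cpt1a lie at -0.50, -0.58 and -0.80, while those of Acaa1a and Crot lie apart.

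Tested singly, 23 of 65 probe sets fell and 0 rose, where 12.1% of all single-symbol probe sets fell. Of the 15 members that fell, 9 have more than 1 probe set, and in 2 of them, Slc25a20 and Etfdh, every probe set was called, although the second of Etfdh, at a control mean of 3.76, lay below the lower quartile of every array. The 3 probe sets of Cpt1a differed by -0.50, -0.58 and -0.80, with limma adjusted p = 0.00353, 0.0513 and 0.0122. The second probe set of Crot was dim, at a control mean of 5.50, and gave 0.24 (adjusted p = 0.143). The second probe set of Acadl was also below that quartile, at a control mean of 3.53, and gave 0.12 (adjusted p = 0.548).

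Thioesterases, which free fatty acid from CoA, held the largest change. Acot1, the cytosolic enzyme and a strong PPARalpha target, read 8.52, 9.60, 8.57, 8.05 and 8.08 in controls and 6.92, 7.50, 7.39, 7.61 and 6.66 in treated animals. The groups were apart, with control 2 far above the other controls and treated animals 1 and 5 lowest. Its log2 difference was -1.35 ± 0.27 (SE, limma adjusted p = 0.00512), or 39.3% of control, and -1.09 without control replicate 2. The probe set shared by Acot1 and its mitochondrial neighbour Acot2 went from 8.08 ± 0.54 to 6.96 ± 0.42 (SD, n = 5), again with no overlap. Acot2 on the brighter of its own probe sets read 7.93, 7.92, 7.73, 7.67 and 7.61 against 7.27, 7.47, 7.61, 7.69 and 7.15, which overlapped. It fell by 0.33 on the log2 scale (limma adjusted p = 0.0434) and lost its call in 6 of 10 omissions of an animal. It kept the call without control replicates 4 or 5 or phenobarbital replicates 3 or 4 (log2 difference -0.40 to -0.26 over the omissions, adjusted p 0.0276 to 0.102). The dimmer probe set of Acot2, at a control mean of 4.89, differed by -0.23 when tested singly (limma adjusted p = 0.153). The peroxisomal thioesterases Acot3, Acot4 and Acot8 had intervals of the difference from -0.47 to 0.13, from -0.10 to 0.33 and from -0.06 to 0.29. The second probe set of Acot4, tested singly, fell by 0.38 (limma adjusted p = 0.0174), opposite in sign to the one used above (0.11).

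The other genes around the pathway gave no call. Pdk4, the kinase that shuts pyruvate out of mitochondria in fasting, read 7.74, 8.46, 8.48, 6.84 and 7.91 in controls and 7.18, 7.45, 7.52, 7.42 and 6.91 in treated animals. Control 4 lay below every treated animal and the other 4 controls above them. The log2 difference was -0.59 (95% interval -1.14 to -0.04, limma adjusted p = 0.119), -0.85 without control replicate 4 (adjusted p = 0.00447) and 0.46 with the spike-in block. Vnn1, the pantetheinase that recycles part of CoA, read 7.77, 8.11, 7.88, 7.13 and 8.08 against 7.49, 8.42, 8.29, 8.37 and 7.95, which overlapped (interval -0.12 to 0.74), and differed by 0.97 with the block (unadjusted p = 0.00422, adjusted p = 0.149). Fabp1, the fatty acid binding protein of hepatocytes, stood near the top of the scale at 14.69 ± 0.04 and 14.65 ± 0.02 (SD, n = 5), where a change may be compressed.

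Ketone body metabolism was represented by Bdh1, the mitochondrial enzyme that makes hydroxybutyrate. It read 12.11, 12.25, 12.20, 12.19 and 12.26 in controls and 12.03, 12.15, 12.10, 12.09 and 12.15 in treated animals, and the groups overlapped. The log2 difference was -0.10 (95% interval -0.22 to 0.03, limma adjusted p = 0.247). Of 7 further ketone genes 5 were measured, of which 2 fell (40%) and 1 rose (20%), where 11.3% and 9.02% of all genes did. Acat1, the thiolase that starts ketone synthesis, fell by 0.43 on the log2 scale (limma adjusted p = 0.00136). The log2 difference was -0.34 for the monocarboxylate carrier Slc16a1 and 0.29 for the cytosolic Bdh2. With the spike-in block Acat1, Slc16a1 and Bdh2 stood at -0.30, -0.23 and 0.25.

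**Figure D4:**
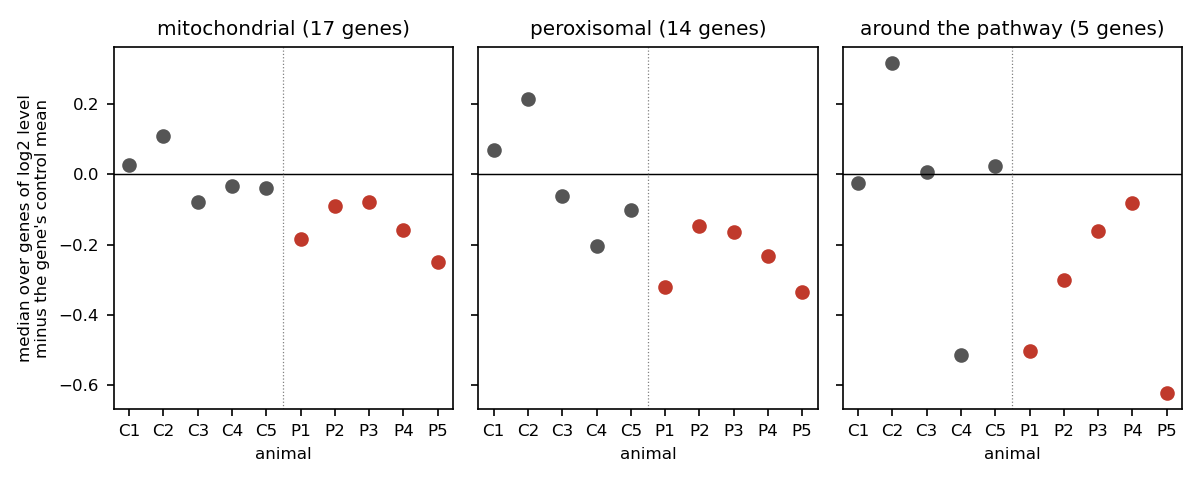
Median over the members of a group of the log2 level minus the gene's control mean (y axis), for each control (C1 to C5, grey) and phenobarbital animal (P1 to P5, red). Control 2 is the highest animal in all 3 panels, at 0.11, 0.22 and 0.32, and phenobarbital animal 5 the lowest, at -0.25, -0.34 and -0.62.

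The same animals were often the highest or lowest of their group across members. Among controls, replicate 2 was highest in 24 of the 36 members without a tie, where it was highest in 16.3% of all genes, and lowest in 0 of 35. Control replicate 4 was lowest in 17 of 35, against 19.5% of all genes. Among treated animals, replicate 5 was lowest in 22 of 36 members and replicate 1 in 11, against 20.3% and 29.3% of all genes. The median deviation from the control mean over all 37 members was 0.15 in control 2, between -0.07 and 0.03 in the other controls, and from -0.28 to -0.10 in the treated animals. Over the mitochondrial members control 3, at -0.08, did not lie above treated animal 3, at -0.08, and over the peroxisomal members control 4, at -0.21, lay below treated animals 2 and 3, at -0.15 and -0.17. Over the genes around the pathway control 4, at -0.51, lay below treated animals 1 to 4, at -0.50, -0.30, -0.16 and -0.08. Leaving out control replicate 2 reduced the members called lower from 15 to 10, and all 10 were among the 15. Leaving out phenobarbital replicate 5 also gave 10 of the 15. The share of all genes called lower dropped as well, from 11.3% to 7.57% and 9.03% in these 2 omissions.

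Lists of neighbouring genes were read beside the members, and none of these lists holds a member. Of 27 measured genes listed as further peroxisomal ones 4 fell (14.8%) and 3 rose (11.1%), near the 11.3% and 9.02% of all genes. The list also holds the peripheral myelin gene Pmp22 and the cytosolic thioesterase Acot12, neither of which was called. Among them the log2 difference was -0.38 for the acyl-CoA synthetase Slc27a2, -0.35 for the assembly factor Pex3, and 0.31 for the assembly factors Pex14 and Pex19 alike. Of 23 measured genes listed as further mitochondrial ones 4 fell (17.4%) and 1 rose. The log2 differences were -0.58 and -0.49 for the synthetases Acsl3 and Acsm3, of which Acsl3 is known from the endoplasmic reticulum and lipid droplets, -0.47 for the thioesterase Acot9 and 0.40 for the synthetase Acsm1. Genes of the respiratory chain and citric acid cycle had 1 of 20 lower and 3 higher, with a median of 0.04. The log2 difference was 0.44 for the citrate synthase Cs, 0.30 for Idh3a of the same cycle, and 0.30 and -0.27 for the complex III core genes Uqcrc1 and Uqcrc2. The median differences of the further peroxisomal and mitochondrial lists were -0.03 and -0.02. With the spike-in block 0 genes of these 3 lists passed, and Acsm1, Uqcrc1 and Uqcrc2 stood at 0.06, 0.04 and -0.02.

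Regulators of the pathway were lower or gave no call. Of 13 PPAR regulators 7 fell (53.8%) and 0 rose, where 11.3% and 9.02% of all genes did. Among the 7 were the coactivators Ppargc1a and Ppargc1b (log2 differences -1.42 and -0.87), the receptor Ppara and the deacetylase Sirt1 (-0.85). Ppara went from 10.43 ± 0.25 to 9.56 ± 0.18 (SD, n = 5), a log2 difference of -0.87 (limma adjusted p = 0.00075), and -0.52 with the spike-in block (adjusted p = 0.222). Of 16 measured further PPARalpha targets 5 fell (31.2%) and 1 rose (6.25%), against the same shares of all genes. The log2 difference was -1.77 for Cyp4a14, an omega-hydroxylase of fatty acids, -1.48 for the lipase inhibitor Angptl4, -0.94 for Cyp4a31 and -0.73 for the lipid droplet protein Plin5. With the spike-in block Cyp4a14 stood at -0.13. With the spike-in block 0 genes of either list passed limma.

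Fasting genes were lower or gave no call, and feeding genes were higher or gave no call. Of 14 measured fasting genes 4 fell (28.6%), where 11.3% of all genes did, and 0 rose. These 4 were Angptl4, Ppargc1a, the gluconeogenic enzyme Pck1 (-1.11) and the insulin receptor substrate Irs2 (-1.09). Angptl4 and Ppargc1a are also counted above. Of 12 measured feeding genes, most of which serve the making of fat from sugar, 9 rose (75%) and 0 fell, where 9.02% of all genes rose. Thrsp was up by 1.49, Pnpla3 by 1.46, Elovl6 by 1.01 and Fasn by 0.98 on the log2 scale. With the spike-in block 0 genes of either list passed limma (adjusted p = 0.221 for Thrsp and 0.356 for Pck1). The mean level of the fasting list was 10.45 in control 2, where 24 members were highest, 9.58 to 9.94 in the other controls and 8.91 to 9.34 in treated animals, with treated animal 5 lowest. Treated animal 1 was at -0.208 over the members in median deviation. On the fasting list it read 9.269, against 9.255 to 9.343 in treated animals 2 to 4. The mean level of the feeding list was 10.44 to 11.15 in controls and 11.27 to 11.88 in treated animals. The labels give no feeding state or hour of sampling, and the part of nutritional state in the members' differences was not tested.

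Markers of cell types were read beside the members. Hepatocyte markers averaged 14.40 to 14.42 in controls and 14.34 to 14.42 in treated animals, with 1 of 6 lower (Apob). Alb, Serpina1c, Ttr and Apoa1 had control means of 14.76 to 14.98, near the top of the scale, where a change may be compressed. Hnf4a, at a control mean of 12.59, differed by 0.09 and gave no call. Stellate cell markers fell in 4 of 6 (8.69 to 8.80 against 8.21 to 8.56) and endothelial markers in 3 of 5 (8.22 to 8.75 against 7.97 to 8.41), where 11.3% of all genes fell. The median difference of the stellate list was -0.49, and -0.57 with the spike-in block. That of the endothelial list was -0.30, and -0.11 with the block. Periportal genes, which mark the zone where fatty acid oxidation is strongest, fell in 2 of 5 (12.06 to 12.64 against 11.69 to 12.04), against the same 11.3% of all genes. They were Pck1, also counted with the fasting genes, and the urea cycle enzyme Ass1. Cyp2f2 (0.10), Hal (-0.03) and Alb (-0.02) gave no call. Ass1 went from -1.50 to 0.04 with the spike-in block. In that fit 0 of the 5 passed. Without the block, pericentral genes fell in 1 and rose in 2 of 7, where 11.3% and 9.02% of all genes did. The log2 differences of Lgr5, Cyp1a2 and Rhbg were -1.05, 0.57 and 0.81. With the spike-in block they were -1.07, 0.50 and 0.66. Of the Kupffer cell markers 1 of 6 fell, of the cholangiocyte markers 1 of 5 rose, and of the acinar markers of the pancreas 2 of 4 rose, where 9.02% of all genes rose. None of the 4 lymphocyte, 3 adipocyte or 3 kidney markers was called, and the kidney list averaged 3.91 to 4.60 in controls and 3.96 to 4.24 in treated animals. The lower quartile of the arrays was 4.13 to 4.20. The part of these markers in the members' differences was not tested.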

How the data were processed

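Total RNA of 10 livers was labelled by the 3' IVT method and hybridised to Affymetrix arrays, per the labels' protocols, and GCOS is named in the submitters' processing notes. The authors deposited log2 expression levels from 2.34 to 15.13 with 2 decimals, and the log base was inferred from that span. The sources used here do not give how they were summarised or normalised. The deposited values were kept without further normalisation, as array quartiles lay within 0.16 of each other. Each of 18193 genes was represented by the brightest of its single-symbol probe sets, by the mean of the 10 arrays (34945 probe sets with 1 symbol in the platform annotation, 932 with several, 9160 unlisted).

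Group differences were tested with lmFit and eBayes of limma 3.58.1 (R 4.3.3), two-sided, with Benjamini-Hochberg adjustment over all genes and a threshold of 0.05. The script was tested on simulated data with independent noise and no spike-in split, so that test does not bear on the split. Intervals are 95% intervals of the limma difference. Figures were drawn with matplotlib 3.10.9. Group and replicate came from the labels, which give each array an animal of its own; same-numbered animals did not deviate together (correlations from -0.02 to 0.12), so no block was used. Members and lists were chosen with earlier results of these data known, the spike-in split included. Values are named for every member that fell and for Bdh1, and for the up to 4 called genes of each list with the largest differences, and for Ppara and Cyp2b10; some items of this rule are not reported here. Promoter sequences are from RefSeq (GRCm38.p6), which had entries for 33 of 39 members. The arrays are not normalised to cell number, so levels are relative to the other RNA of the sample.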

Additional observations from a re-analysis of the deposited data

Results flagged for a closer look

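A sample lay far from the others of its group of 5 in 3 of 74 cases (37 members, 2 groups), where chance gives about 1 in 20. Decr2 in control 4 read 9.65, below 10.05 to 10.10 in the other controls. Pex11a in control 2 read 9.91, above 9.55 to 9.64. Fabp1 in phenobarbital animal 1 read 14.62, below 14.65 to 14.66 in the other treated animals, a gap close to the 2 decimals of the deposited values.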

How the results depend on the processing

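The number of members called lower was 15, and 12 to 17 under quantile normalisation, median centring, trend and robust variance, array weights, the brighter genes, the mean of probe sets, single-transcript probe sets and all probe sets singly. It was 0 with the spike-in set as a block and 0 with the spike-in mean as a covariate. With 1 animal left out it was 10 to 16 lower and 0 to 1 higher, while 7.57% to 13.2% of all genes were lower. With the replicate block it was 15, the same genes, and as the numbers mark no shared source this pairing has no further meaning. Decr2 turned to 0.0240 with the spike-in block and 0.0247 with the covariate, and Acot4 to -0.38 on its second probe set; the cause was not tested. Cpt1a, Slc25a20, Etfdh, Acaa1a, Ech1, Eci2, Crot, Pex11a and Acot1 lost their call under the spike-in settings and under no other alternative that gave them a value; the probe sets taken singly are no check of this, since each gene is then read on its probe set of lowest p. Median centring moved the median difference of all genes from 0.008 to 0.044. Of the members without a call, Cpt2, Acads, Hadha, Etfb and Ehhadh were among those that changed sign with the spike-in block.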
